A study of Homo sapiens with 12 samples.

Results

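The genes described here are the numbered ZNF zinc finger genes whose RNA was well measured in KG-1 and MOLM-14, human cell lines established from acute myeloid leukaemia. A row of the expression table was taken when its symbol was ZNF, a number and at most 1 further letter, and when its mean level over all 12 libraries was at least 2 on the log2(FPKM + 1) scale, which is about 3 FPKM. FPKM counts sequenced fragments relative to the length of the transcript and the depth of the library. The members were thus chosen on their measured mean level, and that level is given below as a description only. Of 426 such ZNF genes among the 13881 genes of the table, 307 met the rule and 119 lay under it. All 307 passed the filter used for testing, at least 1 FPKM in at least 3 libraries, as did 13353 genes in all.

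The study treated each line for 96 h with ASLAN003 or with DMSO, its solvent, and sequenced 3 libraries of total RNA in each of the 4 groups. ASLAN003 is an inhibitor of dihydroorotate dehydrogenase, an enzyme of de novo pyrimidine synthesis. The sources used here give no dose. They do not say whether the 3 libraries of a group came from separate cultures, so the p-values below rest on a spread among libraries that may be technical alone. All groups grew in the same serum-containing medium, and each line stands for 1 leukaemia.

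Most ZNF proteins carry arrays of zinc fingers, short loops in which a pair of cysteines and a pair of histidines hold a zinc ion, and each finger can read a few bases of DNA. Many also carry a KRAB domain near the start of the protein, which binds the corepressor TRIM28 (KAP1) and through it the histone methyltransferase SETDB1 and heterochromatin protein. KRAB zinc finger genes sit in dense clusters, above all on chromosome 19, and many of their proteins bind transposable elements. Members without a KRAB domain include promoter-binding activators, partners of chromatin complexes and proteins that act on ribosomes or RNA.

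For 266 of the members RefSeq (GRCh38.p14) gave the 250 bases before the annotated start of the gene. The ETS core CCGGAAG, searched on both strands like the motifs that follow, was found in 81 of these 266 windows (30.5%), in 16.7% of the windows of the other tested genes and in 8.52% of all 35116 windows. CCAAT was found in 45.9% of member windows and in 35.0% of those of other tested genes, the GC box GGGCGG in 62.0% against 67.7%, TATAAA in 3.76% against 5.11%, and the E-box CACGTG, which reads the same on both strands, in 5.26% against 9.33%. A match describes the letters of the window and is not shown to be a bound site. Median GC content was 62.0% in member windows and 65.2% in those of other tested genes.

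The windows of 3 members that rose under ASLAN003 in both lines are printed first, because these members carry the shared treatment result. They are given 5′ to 3′ on the strand of the gene, with matches to any of the 5 motifs in capitals, on either strand.
ZNF467 (chr7:149773589-149773838, minus strand): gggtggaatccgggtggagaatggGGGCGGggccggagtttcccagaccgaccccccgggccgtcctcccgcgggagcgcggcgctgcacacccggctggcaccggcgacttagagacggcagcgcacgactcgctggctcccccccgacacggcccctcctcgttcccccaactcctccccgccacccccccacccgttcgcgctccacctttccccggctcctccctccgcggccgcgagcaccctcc
ZNF516 (chr18:76495243-76495492, minus strand): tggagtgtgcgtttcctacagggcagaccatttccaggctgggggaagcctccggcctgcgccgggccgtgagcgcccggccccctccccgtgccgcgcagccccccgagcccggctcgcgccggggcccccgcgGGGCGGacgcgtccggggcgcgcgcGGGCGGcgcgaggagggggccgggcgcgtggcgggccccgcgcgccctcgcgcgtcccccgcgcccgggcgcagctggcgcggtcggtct
ZNF274 (chr19:58182811-58183060, plus strand): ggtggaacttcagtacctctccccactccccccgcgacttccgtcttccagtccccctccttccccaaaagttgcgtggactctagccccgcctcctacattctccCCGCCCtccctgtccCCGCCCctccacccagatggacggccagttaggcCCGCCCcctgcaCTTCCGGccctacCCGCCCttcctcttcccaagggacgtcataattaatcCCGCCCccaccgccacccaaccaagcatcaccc
Among the motifs searched, the windows of ZNF467 and ZNF516 held GC boxes alone, and that of ZNF274 held 5 GC boxes and 1 ETS core. The windows of 3 members that averaged under 1 FPKM in MOLM-14 follow, because these had the largest differences in favour of KG-1.
ZNF93 (chr19:19900696-19900945, plus strand): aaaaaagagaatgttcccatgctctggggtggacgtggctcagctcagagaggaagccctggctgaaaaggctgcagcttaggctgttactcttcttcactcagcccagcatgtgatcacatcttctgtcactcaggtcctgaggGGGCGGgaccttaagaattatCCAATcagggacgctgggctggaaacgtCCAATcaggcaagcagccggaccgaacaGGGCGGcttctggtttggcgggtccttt
ZNF302 (chr19:34677428-34677677, plus strand): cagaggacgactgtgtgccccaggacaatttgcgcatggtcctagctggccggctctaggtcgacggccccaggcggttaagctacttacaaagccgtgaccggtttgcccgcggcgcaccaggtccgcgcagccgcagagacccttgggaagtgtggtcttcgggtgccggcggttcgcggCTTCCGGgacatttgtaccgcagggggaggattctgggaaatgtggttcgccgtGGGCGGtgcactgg
ZNF439 (chr19:11848476-11848725, plus strand): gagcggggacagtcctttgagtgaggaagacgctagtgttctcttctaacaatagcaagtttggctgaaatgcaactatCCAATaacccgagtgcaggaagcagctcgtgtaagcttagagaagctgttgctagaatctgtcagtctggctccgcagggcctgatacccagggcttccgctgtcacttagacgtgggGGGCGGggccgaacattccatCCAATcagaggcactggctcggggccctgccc
ZNF93 and ZNF439 each held a pair of CCAAT boxes and at least 1 GC box, and ZNF302 held 1 ETS core and 1 GC box. No measurement here reads DNA binding, methylation or sequence in the cells, so nothing links these letters to the levels below.

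By level, the members were moderate to low. Their median mean level was 3.16 on the log2(FPKM + 1) scale against 3.74 over all tested genes, and 55 members (17.9%) reached 4, against 44.8% of all tested genes. The highest was ZNF207, also called BuGZ, a spindle protein that helps load BUB3 onto kinetochores, with 112 ± 7.37 FPKM in KG-1 under DMSO and 129 ± 8.45 in MOLM-14 under DMSO (SD, n = 3 each). ZNF692 (112 ± 4.93 FPKM in KG-1 under DMSO), ZNF146 (73.9 ± 6.59), ZNF706 (39.7 ± 1.65) and ZNF76 (73.8 ± 3.44) completed the 5 highest. At the threshold, the members just inside were ZNF439 (mean 2.0007), ZNF688 (2.0197) and ZNF570 (2.028), and the ZNF genes just outside were ZNF517 (1.9982), ZNF554 (1.9982) and ZNF587B (1.9931). ZNF439 shows how a mean can hide a split: its value was 11.16 to 11.96 FPKM in KG-1 under DMSO and 0 to 0.27 FPKM in MOLM-14.

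By structure, 303 members were annotated as protein-coding and 4 as pseudogenes, namely ZNF767P, ZNF252P, ZNF815P and ZNF271P, which the rule takes in because their symbols end in 1 letter. A sequence pattern for the KRAB A box was found in 164 of the coding members and was absent from 139. Divergent boxes lack the pattern, so the 139 can include KRAB genes. Between bases 43596392 and 45076588 of chromosome 19, only 1 of 13 members had it. The number of fingers matched by pattern ranged from 0 to 31, with a median of 11 in members with the KRAB pattern and 8 in the others. ZNF142 had the most. The 8 coding members without a matched finger included ZNF185, a LIM-domain protein of the actin cytoskeleton, and ZNF720, whose annotated product of 126 residues has the KRAB box alone. Members with the KRAB pattern had a median mean level of 2.92, and those without it 3.58. Chromosome 19 held 136 members (44.3%), of which 100 had the KRAB pattern, while it held 7.97% of all tested genes with a known position.

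Both lines held the myeloid transcripts CD33, PTPRC, SPI1, MPO and FLT3 in every library, while CD34 stayed at or under 0.17 FPKM. The summed level of the 6 myeloid markers was 379 to 422 FPKM in KG-1 under DMSO and 504 to 537 under ASLAN003, and 313 to 350 and 394 to 499 in MOLM-14. The markers did not move as one. MPO, an enzyme of granulocyte precursors, ranged over 140.9 to 172 FPKM under DMSO and 33.83 to 44.35 under ASLAN003 in KG-1. In MOLM-14 it ranged over 17.89 to 25.06 and then 4.04 to 5.41 FPKM. SPI1 and FLT3 were higher under ASLAN003 in both lines, with no overlap of treated and control libraries. PTPRC was so in KG-1, while its ranges overlapped in MOLM-14, and the ranges of CD33 overlapped in both lines. Among markers of other cells, CD3D was at most 0.22 FPKM. The 3 epithelial markers summed to 18.2 to 36.3 FPKM over all libraries, and COL1A1 reached 10.7 FPKM in KG-1 and 5.01 FPKM in MOLM-14. The part of these transcripts in the results was not tested. Depth, estimated from the steps between low values, was 17500000 to 18550000 fragments per library, which puts about 172 fragments on a member of median length at the threshold. The spread between libraries was wider in MOLM-14: the members' median SD was 0.15 in both KG-1 groups, 0.20 in MOLM-14 under DMSO and 0.25 in MOLM-14 under ASLAN003 on the log2 scale. The library MOLM-14 ASLAN003 1 had the lowest weight, 0.235 when libraries were weighted by their spread.

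In KG-1, ASLAN003 changed a smaller share of ZNF genes than of all tested genes, and by less. With limma and Benjamini-Hochberg adjustment over all 13353 genes, 28 members rose and 19 fell at an adjusted p under 0.05. That is 15.3% of members, against 33.7% of all tested genes (19.4% higher, 14.3% lower). The median SE was near that of all genes (0.19 against 0.18), and 3 members (0.977%) changed at least 2-fold on this scale, against 11.2% of all genes. The central 90% of member changes ran from -0.56 to 0.68, and of all genes from -0.87 to 1.28. The number of calls depended on the spread shared with MOLM-14, whose libraries varied more. With KG-1 fitted alone, 50 members rose and 37 fell, while 45.7% of all tested genes were called. With libraries weighted by their spread, 74 rose and 47 fell, against 52.5% of all tested genes called. Of the 47 calls, 16 held under all 22 alternative settings, 9 higher and 7 lower. Leaving out 1 library gave 12 to 41 higher and 8 to 27 lower calls. The lowest counts came without KG-1 ASLAN003 1 (12 higher, 8 lower), and the highest without MOLM-14 ASLAN003 1 (41 higher) or MOLM-14 ASLAN003 2 (27 lower).

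The balance of rises and falls depended on how libraries were scaled. With each library centred on its median, the median change of all genes moved from 0.05 to -0.07 and the calls of members turned from 28 higher and 19 lower to 14 higher and 35 lower. Quantile normalization gave 14 and 36, and rescaling without abundant gene classes gave 17 and 25. The median change of the members was 0.07 as deposited and turned negative under the first and second of these (-0.05 and -0.06), so no direction is given for the family in KG-1.

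**Figure D1:**
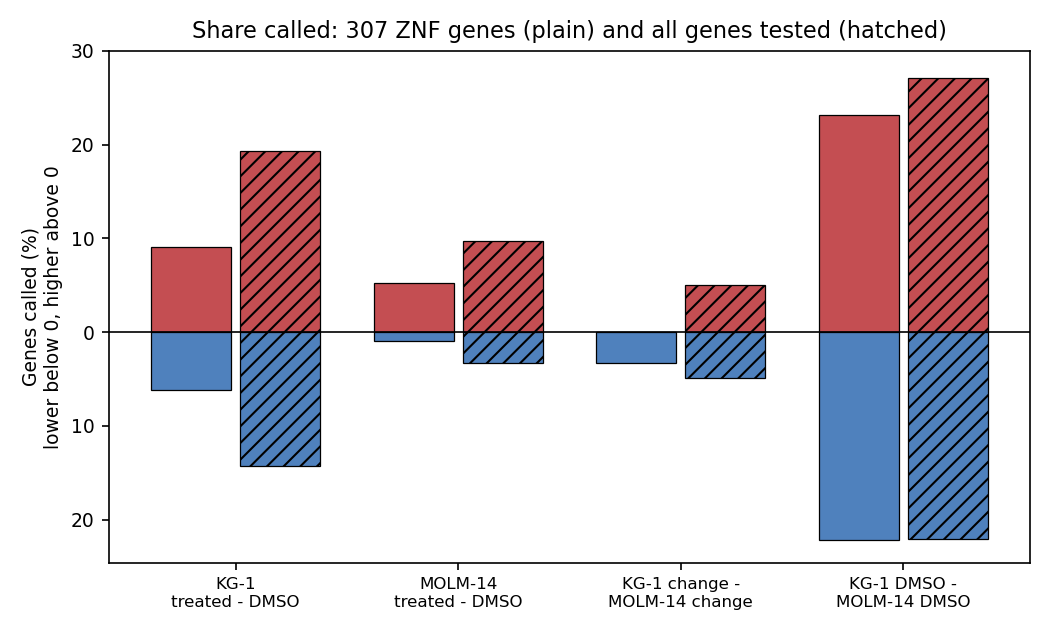
Share of genes called at an adjusted p under 0.05 in each comparison, in percent, higher above 0 and lower below 0, for the 307 ZNF genes (plain bars) and all 13353 genes tested (hatched bars). In both treatment comparisons the plain bars are the shorter ones: 15.3% against 33.7% in KG-1 and 6.19% against 13.0% in MOLM-14.

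Among the rises in KG-1 that held under all alternatives, ZNF467 was the largest. It is a finger protein without a KRAB box, known for its role in the fate of bone marrow stromal cells. It stood at 0.99, 1.22 and 1.58 FPKM under DMSO and at 5.47, 3.87 and 5.91 FPKM under ASLAN003, a change of 1.42 ± 0.20 (SE; adjusted p 0.000167, limma). ZNF720, a KRAB-only product, followed with 4.46, 3.61 and 6.28 FPKM under DMSO and 12.9, 11.4 and 8.85 FPKM under ASLAN003 (1.07 ± 0.21, adjusted p 0.00205). In both genes every treated library lay above every control library.

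ZNF217 and ZNF516, which are known to meet in CtBP corepressor complexes, both rose. ZNF217, a gene amplified in breast cancer, went from 5.55, 5.82 and 6.05 FPKM to 13.5, 12.3 and 10.3 FPKM (0.93 ± 0.15, adjusted p 0.000467). ZNF516, an activator of brown fat genes, went from 9.13, 7.15 and 8.81 FPKM to 16.64, 14 and 18.41 FPKM (0.89 ± 0.20, adjusted p 0.00395). The groups did not overlap for either gene.

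ZNF385A, a p53 target that steers p53 between its own targets, was among the most abundant of the risers. Its controls were 30.6, 30.6 and 31.0 FPKM and its treated libraries 76.7, 52.5 and 44.9 FPKM (0.86 ± 0.17, adjusted p 0.00197). The treated libraries were all higher and spread more widely than the controls. ZNF319 (0.93 ± 0.19, adjusted p 0.00234), ZNF710 (0.73 ± 0.19, adjusted p 0.00936), ZNF605 (0.73 ± 0.17, adjusted p 0.00455) and ZNF200 (0.60 ± 0.13, adjusted p 0.00287) were the other rises that held throughout. The exons of ZNF319 and ZNF710 overlap genes of the opposite strand, USB1 and ZNF710-AS1, and the sources used here do not say whether counting used the strand.

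Of the falls in KG-1, ZNF395 was the largest. It is a finger protein with 1 matched finger, first described as a binder of the Huntington disease gene promoter. It stood at 21.3, 21.7 and 18.2 FPKM under DMSO and at 7.34, 8.33 and 9.85 FPKM under ASLAN003 (-1.17 ± 0.17, adjusted p 0.000183, limma). All treated libraries were under all controls. Exons of ZNF395 overlap those of FBXO16 on the same strand, so reads of the shared stretch were divided by the authors' software.

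ZNF598, the ubiquitin ligase that marks collided ribosomes, fell in KG-1 from 58.4, 59.1 and 58.8 FPKM to 38.2, 38.4 and 31.4 FPKM (-0.70 ± 0.12, adjusted p 0.000636). ZNF74, a KRAB gene of the DiGeorge region on chromosome 22, fell from 9.78, 11.6 and 11.3 FPKM to 6.30, 5.70 and 5.00 FPKM (-0.84 ± 0.14, adjusted p 0.000461). Neither gene had overlapping groups. ZNF584 (-0.93 ± 0.22, adjusted p 0.00550), ZNF436 (-0.70 ± 0.15, adjusted p 0.00382), ZNF768 (-0.53 ± 0.11, adjusted p 0.00255) and ZNF706 (-0.51 ± 0.11, adjusted p 0.00404) were the other falls that held throughout.

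The remaining members with the largest KG-1 changes each lost the call without 1 library. ZNF528 (0.79) lost it without KG-1 DMSO 3 or KG-1 ASLAN003 1 (adjusted p 0.0586 and 0.0625, limma). ZNF177 (0.76) lost it without KG-1 DMSO 2, DMSO 3, ASLAN003 1 or ASLAN003 3 (0.0644 to 0.0824), and it shares exons with the readthrough gene ZNF559-ZNF177. ZNF532 (0.77) lost it without any 1 of the KG-1 libraries other than ASLAN003 3 (0.0613 to 0.166) and under all 3 other scalings (0.0536 to 0.0681). Among the falls, ZNF343 (-0.79) lost it without KG-1 DMSO 1, DMSO 3, ASLAN003 1 or ASLAN003 3 (0.0582 to 0.112), and ZNF766 (-0.66) without KG-1 DMSO 1, DMSO 2, ASLAN003 1 or ASLAN003 2 (0.0555 to 0.0745). ZNF771 (-0.61) lost it without KG-1 DMSO 1, DMSO 2, ASLAN003 1 or ASLAN003 3 (0.0700 to 0.0864), ZNF587 (-0.60) without KG-1 DMSO 2, DMSO 3, ASLAN003 1 or ASLAN003 2 (0.0698 to 0.0884), and ZNF785 (-0.58) without any 1 KG-1 library (0.0528 to 0.123).

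In MOLM-14, 16 members rose and 3 fell, 6.19% of members against 13.0% of all tested genes (9.69% higher, 3.33% lower). These calls lean on a spread shared with KG-1, whose libraries varied less. With MOLM-14 fitted alone, 1 member rose and 0 fell (limma, unadjusted p under 0.05 in 25 and 7 members), and with libraries weighted by their spread 4 rose and 0 fell (32 and 8). The scaling mattered here too: median centring moved the median change of all genes from 0.08 to -0.07 and gave 3 higher and 10 lower members, quantile normalization 3 and 5, rescaling 8 and 3. The members' median change of 0.13 became -0.02 and -0.01 under the first and second. Leaving out 1 library gave 6 to 19 higher and 1 to 4 lower calls, with the fewest rises without MOLM-14 DMSO 1 (6) and the most without MOLM-14 ASLAN003 3 (19).

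ZNF467 was the only member whose MOLM-14 call held under all 22 alternatives. It stood at 6.94, 6.94 and 5.15 FPKM under DMSO and at 18.5, 13.3 and 13.0 FPKM under ASLAN003 (1.11 ± 0.20, adjusted p 0.00423, and 0.0367 with the line fitted alone). ZNF174, a SCAN-domain protein, went from 4.76, 4.33 and 6.64 FPKM to 8.60, 10.1 and 9.34 FPKM (0.74 ± 0.15, adjusted p 0.00812). It kept the call without any 1 library but not with the line fitted alone (0.0996). Every treated library lay above every control for both genes.

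ZNF516 rose in MOLM-14 from 20.4, 19.26 and 14.97 FPKM to 45.9, 28.9 and 27.2 FPKM (0.84 ± 0.20, adjusted p 0.0155, and 0.0607 without MOLM-14 DMSO 3). ZNF202, a SCAN-domain repressor of lipid genes, fell from 10.9, 13.7 and 18.2 FPKM to 6.32, 8.74 and 7.72 FPKM (-0.81 ± 0.19, adjusted p 0.0163, and 0.0627 without MOLM-14 DMSO 3). The groups did not overlap for either gene, and neither call was kept with MOLM-14 fitted alone (0.0952 and 0.0999). ZNF189 (0.60) lost its call without MOLM-14 DMSO 1 or DMSO 2 (adjusted p 0.0521 to 0.0633), ZNF564 (0.64) without MOLM-14 DMSO 1 or DMSO 3 (0.0595 to 0.0653), and ZNF823 (0.72) without MOLM-14 DMSO 1, DMSO 2 or ASLAN003 2 (0.0742 to 0.103). The pseudogene ZNF815P (0.78) lost it without MOLM-14 DMSO 2, DMSO 3, ASLAN003 1 or ASLAN003 2 (0.0564 to 0.0928). ZNF555 (0.75) lost it without KG-1 DMSO 1, KG-1 ASLAN003 1, MOLM-14 ASLAN003 1 or 2, or any MOLM-14 DMSO library (0.0579 to 0.119). ZNF32 (0.62) lost it without any KG-1 DMSO library, KG-1 ASLAN003 2, MOLM-14 DMSO 1 or 3, or MOLM-14 ASLAN003 2 or 3 (0.0613 to 0.132). ZNF764 (-0.60) lost it without KG-1 DMSO 1 or 2, KG-1 ASLAN003 1 or 2, any MOLM-14 DMSO library, or MOLM-14 ASLAN003 1 or 2 (0.0506 to 0.120).

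Across the lines, 60 members were called in at least 1 and 247 in neither. ZNF467, ZNF516, ZNF720 and ZNF274 rose in both, ZNF395 fell in both, and ZNF789 fell in KG-1 and rose in MOLM-14. ZNF274, which recruits SETDB1 to the ends of zinc finger genes on chromosome 19, stood in KG-1 at 30.3, 29.7 and 28.6 FPKM under DMSO and 43.5, 48.5 and 38.7 FPKM under ASLAN003 (0.54 ± 0.16, adjusted p 0.0176, limma). In MOLM-14 it stood at 13.9, 11.6 and 10.3 FPKM and then 20.5, 19.6 and 13.9 FPKM (0.55 ± 0.16, adjusted p 0.0371). Its highest control and lowest treated MOLM-14 libraries were nearly level. The KG-1 call was lost without KG-1 DMSO 2, DMSO 3, ASLAN003 1 or ASLAN003 2 (0.0501 to 0.0758), and the MOLM-14 call without any of 8 libraries, all KG-1 DMSO libraries, KG-1 ASLAN003 1, MOLM-14 DMSO 2, DMSO 3, ASLAN003 1 and ASLAN003 2 (0.0545 to 0.121).

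ZNF720 in MOLM-14 stood at 7.14, 7.69 and 10.2 FPKM under DMSO and 11.3, 17.0 and 15.1 FPKM under ASLAN003 (0.73 ± 0.21, adjusted p 0.0431, limma). ZNF395 in MOLM-14 stood at 41.0, 39.7 and 31.7 FPKM and then 19.6, 30.5 and 24.5 FPKM (-0.59 ± 0.17, adjusted p 0.0390). The groups did not overlap for either gene. Both MOLM-14 calls were thin: ZNF720 lost it without any of KG-1 DMSO 1, KG-1 ASLAN003 1, KG-1 ASLAN003 2, MOLM-14 DMSO 1, MOLM-14 DMSO 2, MOLM-14 ASLAN003 2 and MOLM-14 ASLAN003 3 (0.0545 to 0.134). ZNF395 lost it without any KG-1 DMSO library, KG-1 ASLAN003 2, MOLM-14 DMSO 1, MOLM-14 DMSO 2, MOLM-14 ASLAN003 1 or MOLM-14 ASLAN003 3 (0.0507 to 0.125).

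**Figure D2:**
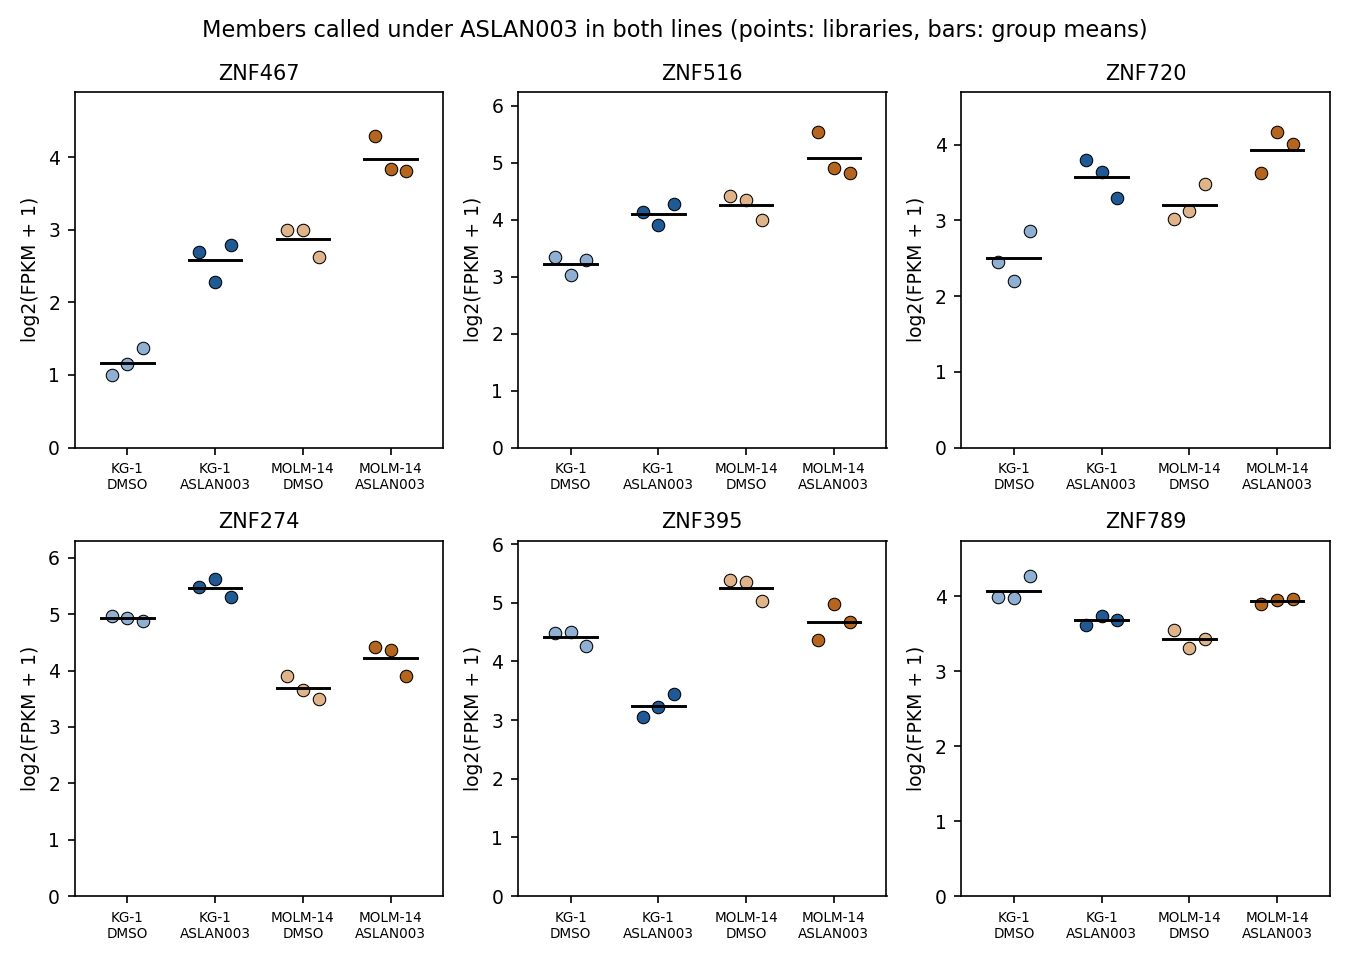
Level of the 6 members called in both lines, as log2(FPKM + 1) on the vertical axis, in the 4 groups; points are single libraries and bars the group means. ZNF467 rose in both lines from different starting levels, 1.26 FPKM in KG-1 and 6.34 FPKM in MOLM-14 under DMSO, and ZNF789 moved in opposite directions.

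The difference between the lines' changes was tested directly as KG-1 change minus MOLM-14 change. With limma, 10 members had a lower change in KG-1 and 0 a higher one (10 at an unadjusted p under 0.05, 0 to 4 under the alternatives), 3.26% of members against 9.94% of all tested genes (5.05% higher, 4.89% lower). ZNF789, a KRAB gene, fell in KG-1 from 14.8, 14.7 and 18.2 FPKM to 11.3, 12.3 and 11.9 FPKM and rose in MOLM-14 from 10.7, 8.93 and 9.80 FPKM to 13.9, 14.4 and 14.5 FPKM. The difference of -0.90 ± 0.18 (adjusted p 0.00802) and that of ZNF74, which changed by 0.09 in MOLM-14 (-0.92 ± 0.19, adjusted p 0.0104), were the calls that held under all alternatives. ZNF248, ZNF584, ZNF32, ZNF791, ZNF174, ZNF691, ZNF189 and ZNF598 made up the rest. All 8 of these lost their call without KG-1 DMSO 1, DMSO 2 or DMSO 3, and each but ZNF598 also without KG-1 ASLAN003 1 or 2 or MOLM-14 DMSO 1 (adjusted p 0.0508 to 0.129 over all libraries that ended a call). Leaving out 1 library gave 2 to 14 lower and 0 to 3 higher calls, the fewest lower without KG-1 DMSO 1, DMSO 2 or DMSO 3 and the most without MOLM-14 ASLAN003 1. Over all members the 2 changes had the same sign in 195 of 307, and their Pearson correlation across genes was 0.33 against 0.43 over all tested genes. Genes are not independent replicates, so this is a description.

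**Figure D3:**
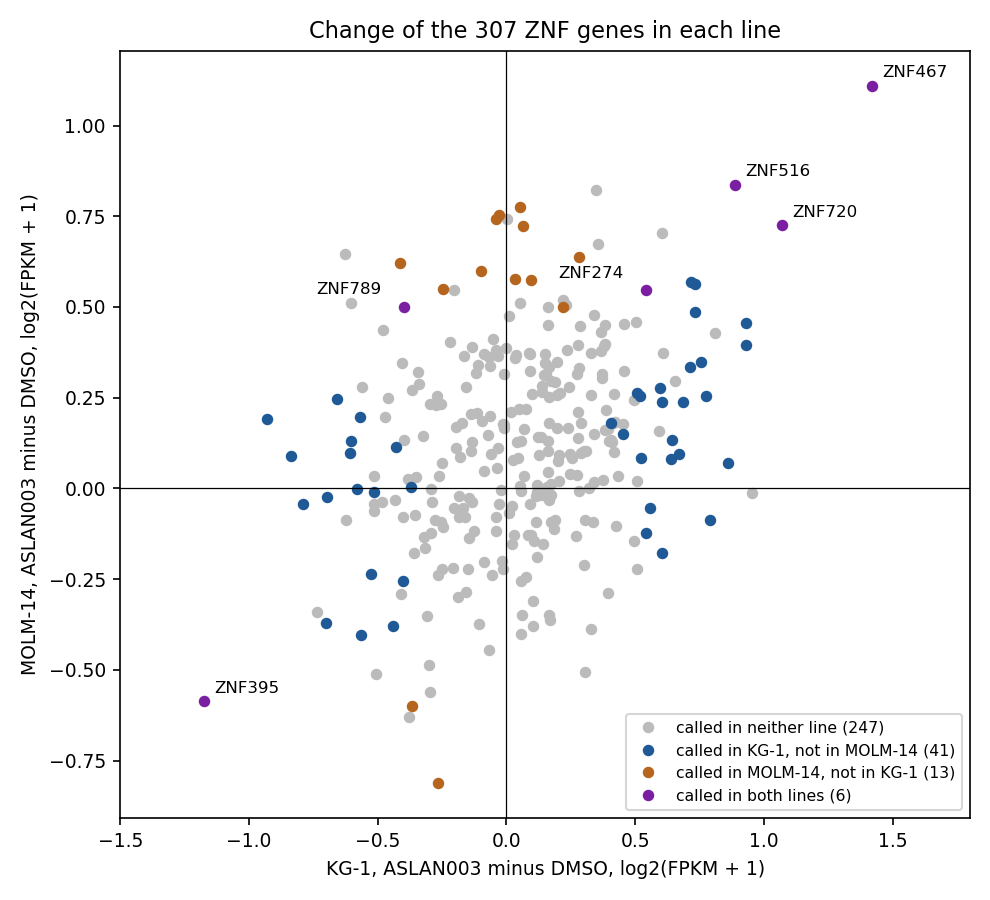
Change under ASLAN003 of the 307 ZNF genes in KG-1 (horizontal) and MOLM-14 (vertical), both as differences of log2(FPKM + 1); each point is 1 gene, coloured by the lines in which it was called. Most points lie within 0.7 of 0 on both axes, and the 6 genes called in both lines are named.

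More members differed between the lines than between the treated and control libraries of either line. Between the DMSO groups, 71 members were higher in KG-1 and 68 lower, 45.3% against 49.2% of all tested genes (27.1% higher, 22.1% lower), and 48 members (15.6%) differed at least 2-fold against 21.1% of all. Of these 139 calls, 100 held under every alternative. Members that met the mean threshold through 1 line alone had to differ, so the count was also taken over the 261 members with at least 3 FPKM in both DMSO groups, of which 50 were higher and 58 lower in KG-1 (41.4%). At the same minimum, 2438 of 9740 tested genes were higher and 2162 lower (47.2%). The members' balance thus went from slightly more higher than lower to more lower than higher.

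In the widest gaps 1 line was near 0, and the size of such a log2 difference depends on the pseudocount of 1. Such members met the mean threshold through the line in which they were high and had to differ, so the levels that follow are a description with no test. ZNF93, a KRAB repressor of LINE-1 elements, stood at 21.0, 18.7 and 22.1 FPKM in KG-1 under DMSO and at 0.15, 0.07 and 0.04 FPKM in MOLM-14 under DMSO (a difference of 4.31 ± 0.16, SE). ZNF302 stood at 20.23, 22.95 and 25.68 FPKM against 0.07, 0.07 and 1.74 FPKM (4.03 ± 0.31). ZNF439 stood at 11.16, 11.44 and 11.96 FPKM against 0.07, 0 and 0.27 FPKM (3.50 ± 0.16). All 3 are KRAB genes of chromosome 19, and ASLAN003 left each under 1 FPKM on average in MOLM-14.

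ZNF331, an imprinted KRAB gene, stood at 25.1, 29.1 and 26.5 FPKM in KG-1 and at 2.37, 2.62 and 1.05 FPKM in MOLM-14 (3.25 ± 0.30). In the other direction ZNF185 stood at 0.84, 0.52 and 0.70 FPKM in KG-1 and at 29.1, 24.2 and 26.2 FPKM in MOLM-14 (-4.03 ± 0.16). ZNF493, a KRAB gene of chromosome 19, stood at 2.20, 2.82 and 4.08 FPKM against 17.69, 18.98 and 18.25 FPKM (-2.29 ± 0.19). In none of these did the lines overlap. ZNF880 (2.24), ZNF32 (2.21), ZNF721 (1.93) and ZNF358 (1.69) were next among those higher in KG-1, and ZNF286A (-1.79), ZNF467 (-1.70), ZNF532 (-1.66), ZNF706 (-1.64), ZNF438 (-1.63) and ZNF718 (-1.51) among those lower.

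**Figure D4:**
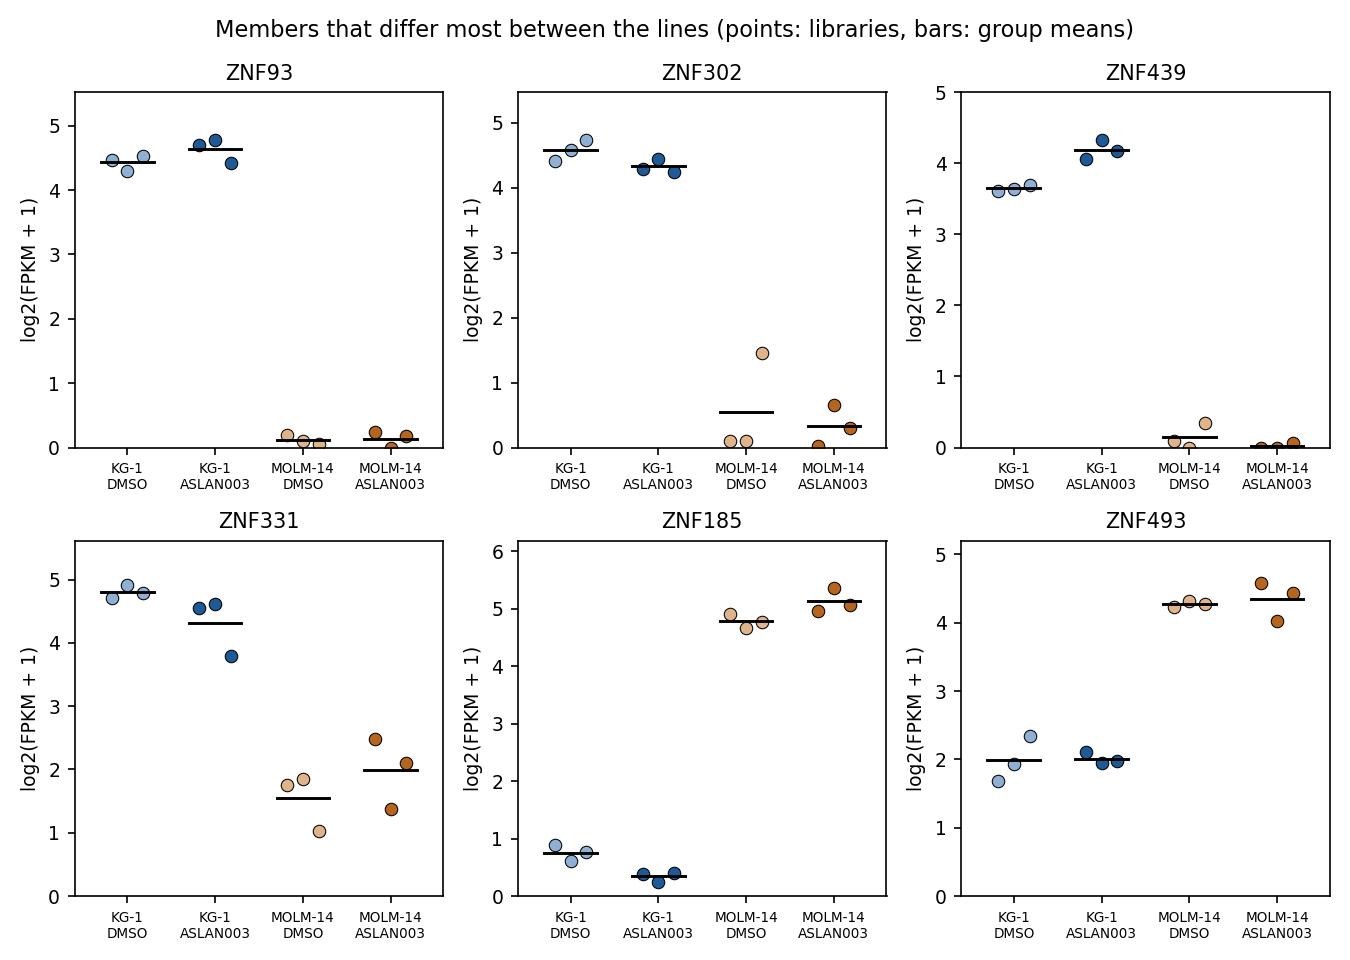
Level of 6 members that differ most between the lines, as log2(FPKM + 1) on the vertical axis, in the 4 groups; points are single libraries and bars the group means. ZNF93 and ZNF439 lie near 0 in MOLM-14 with and without ASLAN003, ZNF302 does so except in MOLM-14 DMSO 3 at 1.74 FPKM, and ZNF185 lies under 1 FPKM in KG-1.

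On chromosome 8 the members shared a direction. All 10 members on chromosome 8 were lower in KG-1 than in MOLM-14, 9 of them past the test, with a median difference of -1.003. The chromosome as a whole did the same: of its 440 tested genes 312 (70.9%) were lower in KG-1 and 25 higher, with a median of -0.92, against 22.1% of all tested genes lower. The members range from ZNF395 on the short arm to a group at the far end of the long arm, ZNF696, ZNF623, ZNF707, ZNF251, ZNF7, ZNF250, ZNF16 and ZNF252P, with ZNF706 between them. ZNF706 had the largest gap, 41.0, 40.3 and 37.8 FPKM in KG-1 against 121.7, 126.0 and 128.7 FPKM in MOLM-14 (-1.64 ± 0.11, adjusted p 1.42e-07, limma). ZNF16 (-1.37), ZNF696 (-1.26), ZNF707 (-1.19) and ZNF7 (-1.16) were each more than 2-fold lower, while ZNF250 (-0.11 ± 0.34, adjusted p 0.812) did not pass. DNA copy number was not measured here. The members' counts by chromosome, here and below, were taken without the minimum of 3 FPKM in both DMSO groups. A member that met the mean threshold through 1 line alone had to differ, so these counts are a description.

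On chromosome 12, 7 of 11 members were lower in KG-1 and 0 higher (limma, 0 higher at an unadjusted p under 0.05; median -0.48), and 33.7% of all tested genes there were lower. On chromosome 11, 4 of 5 members were lower with a median of -1.19, while 24.6% of its tested genes were lower and 23.8% higher. On chromosome 7, 7 of 27 members were higher and 2 lower, and 42.8% of all its tested genes were higher. Over the 21 chromosomes with members, the members' median lay on the same side of 0 as that of all tested genes on 16 and on the other side on 5, chromosomes 2, 10, 16, 18 and 20. On chromosome 20 the members' median was -0.32, with 3 of 6 lower and 0 higher (limma, 0 higher at an unadjusted p under 0.05), while 41.9% of all its tested genes were higher and their median was 0.29. On chromosome 2 the medians were -0.18 and 0.14, and on chromosome 11 that of all tested genes was -0.02.

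**Figure D5:**
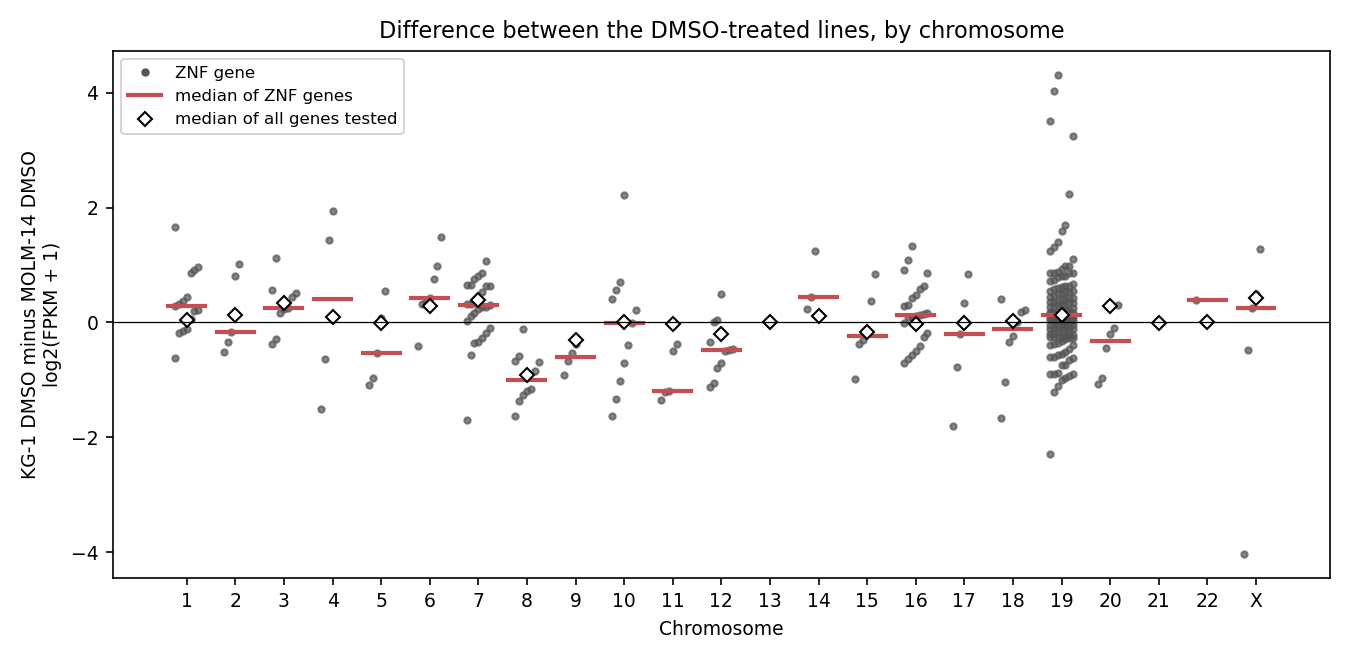
Difference between the DMSO-treated lines, KG-1 minus MOLM-14 in log2(FPKM + 1), by chromosome; dots are ZNF genes, red bars their medians and diamonds the medians of all genes tested on that chromosome. On chromosome 8 all 10 dots lie under 0 and both medians are near -1.

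On chromosome 19, 32 of 136 members were higher in KG-1 and 18 lower (36.8% called). Of all 1058 tested genes there, 29.3% were higher and 16.1% lower. The runs of members differed in their counts. Runs were split wherever neighbouring members lay more than 1000000 bases apart, on the GRCh38 positions of GENCODE 29. The run at chr19:51571298-53580269, with 27 members of which 26 had the KRAB pattern, had 11 higher and 2 lower, among them ZNF331, ZNF880 and ZNF350. The run at chr19:55476332-58481230, with 35 members, had 12 higher and 2 lower. The run at chr19:36214602-37488652, with 12 members, had 0 higher and 4 lower (limma, 0 and 5 at an unadjusted p under 0.05), with a median difference of -0.39. These runs were defined by position, but their contrast was noticed in these data and is given as counts only. They hold members under 3 FPKM in 1 line under DMSO, such as ZNF331, which could meet the mean threshold through the other line. Under ASLAN003 the 27-member run had 3 rises and 1 fall in KG-1 and 0 calls in MOLM-14 (limma, 5 rises and 1 fall at an unadjusted p under 0.05). The run at chr19:11483427-12633840, with 13 members, held 3 of the 6 MOLM-14 rises of the chromosome, ZNF823, ZNF564 and ZNF791 (6 rises at an unadjusted p under 0.05), with a median change of 0.37, and 1 rise in KG-1. Under ASLAN003, 20.5% of all 1058 tested genes of the chromosome rose and 16.1% fell in KG-1. In MOLM-14, 7.94% rose and 4.63% fell. The treatment counts of both runs are a description and no result for a run. ZNF791 lost its call without KG-1 DMSO 3, KG-1 ASLAN003 1, MOLM-14 DMSO 1, MOLM-14 DMSO 3, MOLM-14 ASLAN003 2 or MOLM-14 ASLAN003 3 (adjusted p 0.0543 to 0.134), and none of the 3 calls was kept with median centring (0.0561 to 0.126), quantile normalization (0.0698 to 0.15) or the line fitted alone (0.134 to 0.153).

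By class, members with and without the KRAB pattern were set side by side as counts. Those without it can include KRAB genes whose boxes diverge from the pattern. In KG-1, 12 of the 164 KRAB members rose and 9 fell, with a median of 0.07, and 16 of the 139 others rose and 10 fell, with a median of 0.10. In MOLM-14 the counts were 10 and 1 (median 0.13) against 5 and 2 (median 0.10), and between the lines 35 and 33 against 35 and 34. These medians carry the scaling shift given above. By finger number, 10 of 49 members with at most 4 fingers were called in KG-1 (20.4%), 15 of 93 with 5 to 9 (16.1%), 17 of 101 with 10 to 14 (16.8%) and 5 of 60 with at least 15 (8.33%). In MOLM-14 the shares were 8.16%, 5.38%, 3.96% and 8.33% in the same order. Over all tested genes the shares called were 33.7% in KG-1, 13.0% in MOLM-14 and 49.2% between the lines. Every KRAB and finger class lay under these shares in both treatment comparisons. No difference between these classes was tested, so no trend with finger number is read from the counts. Among the pseudogenes, ZNF815P alone was called under ASLAN003.

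By role, 1 of the 3 ribosome-related members was called in KG-1 and 0 in MOLM-14 (limma, 1 fall at an unadjusted p under 0.05). These are 33.3% in KG-1, where 33.7% of all tested genes were called, and 0 beside 13.0% in MOLM-14, so no result is read for the role. ZNF598 fell in KG-1 and did not pass in MOLM-14 (54.1 ± 6.63 against 53.1 ± 4.87 FPKM, SD, n = 3). The difference between its changes passed its own test (-0.67 ± 0.17, adjusted p 0.0244, limma). It did not pass without KG-1 DMSO 1, DMSO 2, DMSO 3 or MOLM-14 DMSO 2 (0.0552 to 0.0619). ZNF622, a maturation factor of the large ribosomal subunit, was 14.6 ± 1.61 FPKM in KG-1 and 32.1 ± 1.11 in MOLM-14 under DMSO (-1.09 ± 0.13, adjusted p 1.59e-05), with a change of 0.02 in KG-1 and -0.15 in MOLM-14 that did not pass. ZNF593, another large-subunit factor, was also lower in KG-1 under DMSO (-0.62 ± 0.17, adjusted p 0.00980). Of the RNA-binding members ZNF326, ZNF346, ZNF638 and ZNF106, 0 were called under ASLAN003 in either line, with 1 at an unadjusted p under 0.05 in KG-1 and 0 in MOLM-14 (limma). Of these, ZNF346 (adjusted p 0.0673, limma) came nearest in KG-1. The 0 of 4 calls in each line stand beside 33.7% of all tested genes in KG-1 and 13.0% in MOLM-14, and so short a list gives no result for the role.

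Of 10 promoter-binding members without the KRAB pattern, ZNF217 and ZNF281 rose in KG-1 and 0 passed in MOLM-14 (limma, 1 rise at an unadjusted p under 0.05). These 2 of 10 KG-1 calls stand beside 33.7% of all tested genes. ZNF281, a regulator of pluripotency genes, rose by 0.40 (adjusted p 0.0208, and 0.0527 to 0.0962 without KG-1 DMSO 1, DMSO 2, DMSO 3, ASLAN003 1 or ASLAN003 2). ZNF143 and ZNF76, paralogs that bind promoters of small nuclear RNA and many other genes, differed: ZNF76 was 73.8 ± 3.44 FPKM in KG-1 and 26.2 ± 5.80 in MOLM-14 under DMSO (1.48 ± 0.24, adjusted p 0.000271), and ZNF143 was 14.1 ± 0.617 and 19.1 ± 4.86 (-0.38 ± 0.21, adjusted p 0.160). ZNF410, known for driving CHD4, was 29.1 ± 2.81 against 11.8 ± 1.37 FPKM (1.24 ± 0.15, adjusted p 2.66e-05), while CHD4 itself was 94.4 ± 2.26 against 83.7 ± 7.58 FPKM (0.17 ± 0.17, adjusted p 0.426).

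Of 6 members that partner chromatin complexes, ZNF532 rose in KG-1 and ZNF318, a splicing regulator of immunoglobulin D, in MOLM-14, both calls that single libraries ended. These are 16.7% in each line, beside 33.7% of all tested genes in KG-1 and 13.0% in MOLM-14, so no result is read for the role. ZNF318, whose adjusted p in MOLM-14 was under 0.05 with all libraries, lost its call without any library other than MOLM-14 ASLAN003 2 or 3 (adjusted p 0.0542 to 0.149, limma). ZNF592 was higher in KG-1 under DMSO (22.99 ± 0.501 against 12.5 ± 0.246 FPKM, 0.84 ± 0.11, adjusted p 3.96e-05), and its partner ZNF687 did not pass (12.9 ± 0.698 against 14.9 ± 1.35 FPKM). Of 7 KRAB repressors of repeats, imprints and zinc finger clusters, 4 were higher in KG-1 under DMSO (ZNF93, ZNF274, ZNF331, ZNF350) and ZNF268 and ZNF589 lower. These 6 of 7 stand beside 49.2% of all tested genes. ZNF93 and ZNF331 were under 3 FPKM in MOLM-14 under DMSO and could meet the mean threshold through KG-1. The count is thus a description and no result for these repressors. ZNF445, which guards imprinted regions, was 6.93 ± 0.387 against 5.82 ± 1.73 FPKM (adjusted p 0.387). ZNF589 also fell in KG-1 under ASLAN003 (-0.43 ± 0.14, adjusted p 0.0341, and 0.0613 to 0.134 without KG-1 DMSO 1, DMSO 3, ASLAN003 1, ASLAN003 2 or ASLAN003 3).

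The corepressors through which KRAB proteins act differed among themselves. TRIM28, which the KRAB domain binds, stood at 552 ± 43.1 FPKM in KG-1 under DMSO and 350 ± 21.5 under ASLAN003 (SD, n = 3; -0.65 ± 0.10, adjusted p 0.000303, limma), and at 348 ± 7.61 and 294 ± 39.0 FPKM in MOLM-14 (-0.25 ± 0.10, adjusted p 0.122). ATF7IP, which stabilises SETDB1, rose in KG-1 from 9.01 ± 1.25 to 16.2 ± 1.17 FPKM (0.78 ± 0.14, adjusted p 0.000912) and did not pass in MOLM-14 (9.56 ± 0.924 and 9.53 ± 0.978 FPKM), and the difference was 0.79 ± 0.20 (adjusted p 0.0256, and 0.0566 to 0.0734 without KG-1 DMSO 1, DMSO 3, ASLAN003 1, ASLAN003 2 or MOLM-14 DMSO 3). CBX5 rose in KG-1 (0.61, adjusted p 0.0148, and 0.0615 to 0.0719 without KG-1 DMSO 1 or ASLAN003 2), as did HDAC1 (0.32, adjusted p 0.0249, and 0.0650 to 0.107 without KG-1 DMSO 1, DMSO 2, ASLAN003 1 or ASLAN003 2). UHRF1, a reader of hemimethylated DNA, fell in MOLM-14, from 120 ± 8.06 to 76.7 ± 2.75 FPKM (-0.64 ± 0.10, adjusted p 0.00149). The difference between the lines' changes also passed for UHRF1 (0.57 ± 0.14, adjusted p 0.0207, and 0.0541 to 0.0614 without KG-1 DMSO 1, DMSO 3, ASLAN003 1, ASLAN003 2 or MOLM-14 DMSO 2). Of the 12 corepressor genes listed, 3 rose and 1 fell in KG-1, and 0 rose and 1 fell in MOLM-14 (limma, 2 and 2 at an unadjusted p under 0.05). These are 33.3% in KG-1, where 33.7% of all tested genes were called, and 8.33% in MOLM-14, against 13.0%. TRIM28 and ATF7IP in KG-1 and UHRF1 in MOLM-14 kept their calls without any 1 library. SETDB1 changed by 0.24 in KG-1 and 0.16 in MOLM-14, neither past the test. Of the HUSH complex and its partners, FAM208A (TASOR) rose in KG-1 (0.57, adjusted p 0.0151, and 0.0508 to 0.0759 without KG-1 DMSO 1, ASLAN003 1 or ASLAN003 2) and MORC2 in MOLM-14 (0.52, adjusted p 0.0239, and 0.0607 to 0.0959 without MOLM-14 DMSO 2, DMSO 3 or ASLAN003 2). That is 1 of the 4 genes listed in each line. It stands beside 33.7% of all tested genes in KG-1 and 13.0% in MOLM-14, so no result is read for this list.

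Of 51 other zinc finger genes, ZBTB, ZFP, ZKSCAN and ZSCAN genes at the same mean threshold, 10 rose and 3 fell in KG-1 and 3 rose and 0 fell in MOLM-14 (limma, 12 and 2 at an unadjusted p under 0.05). These are 25.5% in KG-1 and 5.88% in MOLM-14, against 33.7% and 13.0% of all tested genes. Of the 109 tested ZNF genes under the threshold, 12 rose and 3 fell in KG-1 (13.8%), and 4 rose and 1 fell in MOLM-14 (4.59%). Both lists thus lay under the share of all tested genes in both lines. Between the lines under DMSO, 71 of these 109 differed (65.1%), 47 higher and 24 lower in KG-1. A low mean can itself come from expression in 1 line alone, so this share is not set against the 45.3% of members.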

How the data were processed

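The members and gene lists were chosen with earlier results of these data known. The deposited values are log2(FPKM + 1), as the authors made them, 1 column per library. Per the submitters' processing notes, the tools were RSEM 1.2.25, STAR 2.4.2a and bcl2fastq 2.17.1.14, and the builds hg38 and GRCh38. No source used here names the gene annotation. RSEM divides reads between similar genes, so levels of close paralogs, pseudogenes and overlapping genes are uncertain; exons of 31 members overlap another gene on the same strand and of 52 on the opposite strand. FPKM is relative to the library, so abundant transcripts can shift all others.

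Genes that reached 1 FPKM in 3 or more libraries were fitted with limma 3.58.1 in R 4.3.3 on log2(FPKM + 1), a pseudocount of 1, with 4 group means, and moderated with eBayes (trend, robust). Tests were two-sided, adjusted by Benjamini-Hochberg over all 13353 genes, and a gene was called at an adjusted p under 0.05. The script was checked on simulated data. Such log2 changes understate changes of low genes. The 22 alternatives changed the pseudocount, filter, scaling, weights, fitted line, moderation, replicate block or left out 1 library. Named were the 10 largest called changes per line and direction without overlapping groups, up to 6 per direction of the difference and of those shared by the lines, 8 per direction between lines, members of the role lists, those at the threshold and the 5 highest, and, chosen after their values were seen, the other members with a called difference between changes, members of chromosome 8 and those whose calls held under all alternatives.

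Gene positions, coding sequences and transcript lengths were those of GENCODE 29 (GRCh38), which held all 307 members. Protein tables were not used here: fingers (a cysteine pair 2 to 4 residues apart, 12 residues, a histidine pair 3 to 5 apart) and KRAB A boxes were matched by pattern in translated coding sequences. Boxes were searched only near the start of the protein, and divergent boxes are missed. Depth was estimated from the library steps of low values, of which 74.5% to 91.5% per library were within 0.15 of a whole fragment. The deposited table holds no counts, so no counting interval was computed.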

Additional observations from a re-analysis of the deposited data

Results flagged for a closer look

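For 10 members the change under ASLAN003 differed between the lines by the interaction term of limma (KG-1 change minus MOLM-14 change, adjusted p under 0.05, against 9.94% of all tested genes). All 10 differences were negative. ZNF74 (-0.92) fell in KG-1 and changed by 0.09 in MOLM-14, which did not pass, and ZNF789 (-0.90) fell in KG-1 and rose in MOLM-14; both held without any 1 library. ZNF598 (-0.67), ZNF584 (-1.12) and ZNF691 (-0.77) fell in KG-1 and did not pass in MOLM-14. ZNF691 stood in KG-1 at 7.90, 7.35 and 9.37 FPKM under DMSO and at 4.33, 5.20 and 6.16 FPKM under ASLAN003, and ZNF584 at 10.8, 9.74 and 9.02 and then 5.20, 4.49 and 4.36 FPKM.

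ZNF32 (-1.03), ZNF174 (-0.78), ZNF189 (-0.70) and ZNF791 (-0.79) rose in MOLM-14 and did not pass in KG-1. ZNF248 (-1.28) passed in neither line (adjusted p 0.0867 in KG-1 and 0.130 in MOLM-14), and its difference had an adjusted p of 0.0498. Without single libraries, the adjusted p of the 8 that lost their call reached 0.0619 for ZNF598, 0.0978 for ZNF584, 0.122 for ZNF691, 0.0729 for ZNF32, 0.105 for ZNF174, 0.109 for ZNF189, 0.112 for ZNF791 and 0.129 for ZNF248. Besides the KG-1 DMSO libraries, the call of ZNF598 ended without MOLM-14 DMSO 2.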

How the results depend on the processing

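With median centring, quantile normalization, rescaling, weighted libraries and each line alone, KG-1 gave 14, 14, 17, 74 and 50 members higher and MOLM-14 gave 3, 3, 8, 4 and 1. KG-1 lower gave 35, 36, 47 and 37 with centring, quantiles, weights and the line alone, and MOLM-14 lower gave 10, 5, 0 and 0. The median change of members turned to -0.047 and -0.061 in KG-1 and to -0.0182 and -0.01355 in MOLM-14 with centring and quantiles, and the median line difference moved from 0.09 to 0.0339 and 0.01234. For the difference between changes, 1 member was higher with the 5 FPKM filter, centring, quantiles or no trend and 4 with weights, and 6 were lower with centring. Without 1 library, KG-1 gave 12 to 41 higher and 8 to 27 lower, MOLM-14 6 to 19 and 1 to 4, and the difference 0 to 3 and 2 to 14. The replicate block left 26 higher and 23 lower in KG-1, 17 and 2 in MOLM-14 and 5 lower for the difference. Same-numbered libraries deviated together by a correlation across genes of 0.020 to 0.041 in KG-1 and -0.0019 to 0.1005 in MOLM-14. Differently numbered libraries gave -0.070 to 0.031 in KG-1 and -0.083 to 0.049 in MOLM-14. The ranges overlapped, but the highest value in each line was that of a same-numbered pair. The labels give no shared day or batch, so the main fit does not take the numbers as pairs, and pairing is not excluded. The cause of the shifts in counts and medians was not tested. Of the 47 KG-1 calls 33 remained under centring, and of the 19 MOLM-14 calls 6. No call of a named gene changed sign under any alternative. Counts between the lines stayed within 1.5 times, 60 to 88 higher and 57 to 79 lower. Precision in MOLM-14 is limited by its wider spread.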
